A study of Homo sapiens with 4 samples.

Results

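ZFAS1 and 9 other long noncoding RNA (lncRNA) genes that carry small nucleolar RNA (snoRNA) genes were examined for the histone variant H3.3 in human lung fibroblasts with and without UV-C irradiation. The 10 genes, ZFAS1, GAS5, SNHG1, SNHG3, SNHG5, SNHG7, SNHG8, SNHG12, SNHG15 and SNHG16, were chosen by name from the 62663 genes of GENCODE release 44, as noncoding hosts of snoRNAs. All H3.3 intervals that overlapped the annotated gene or lay within 2 kb of any annotated transcription start site (TSS) were assigned to a host gene. Of 88822 distinct intervals in the list without UV, 51 were assigned to these genes, and of 77183 in the list after UV, 45.

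H3.3 is deposited outside DNA replication, and nucleosomes that carry it are known from active promoters, gene bodies and regulatory elements. A snoRNA host gene is transcribed as a long precursor. Its introns are trimmed into snoRNAs, which guide ribose methylation (box C/D snoRNAs, named SNORD) or pseudouridylation (box H/ACA snoRNAs, named SNORA) of ribosomal and other RNAs. The spliced exons form the lncRNA, which in many hosts begins with a pyrimidine run (a 5′ terminal oligopyrimidine start, as in ribosomal protein genes) and is removed by nonsense-mediated decay. GAS5 was named for its accumulation in growth-arrested cells, and ZFAS1 for its position antisense to the coding gene ZNFX1.

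Chromatin was immunoprecipitated with an antibody against H3.3 from wild-type MRC5 cells, a line of fibroblasts from human lung, which the study's methods describe as an SV40-immortalized derivative, MRC5_VA. The no UV group was untreated, and the UV group received 10 J/m2 of UV-C followed by 3 h of recovery. Each group was 1 library, made after the DNA of 3 replicates had been pooled, so no spread between replicates exists and no difference between the lists could be tested. The 2 input libraries were not analysed here. Immortalization with SV40 brings in large T antigen, which binds p53, and limits these cells as a model of the normal response to UV. In chromatin of a whole culture, fewer cells with H3.3 at a site and less H3.3 per cell cannot be told apart.

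The deposited lists hold 102924 summits without UV and 89709 after UV on chromosomes 1 to 22, X and Y, and intervals with median widths of 435 and 449 bp. Read numbers were not used here, and a list from a shallower library is shorter, so the depth behind a single interval is unknown. The UV list covered 44.2 Mb against 49.6 Mb, a ratio of 0.891. Neither list went below a −log10 q of 1.30. Because −log10 q and fold enrichment depend on the depth of a library, the strength of an interval is given as a rank percentile, the percentage of summits of the same list with a lower −log10 q. Of 15 fibroblast genes, 8 had a TSS interval without UV and 10 after UV, with PRRX1 and PDGFRA in the UV list only, and COL3A1, COL6A3, THY1, LUM and DCN in neither. Of 6 epithelial genes 4 had one in both lists, of 5 haematopoietic genes 2 and 1, and of 4 endothelial genes 1 and 0. Among all protein-coding genes 53.0% had one without UV and 57.6% after UV, with 8.11% in the UV list only and 3.44% in the no UV list only. The fibroblast count without UV was near this share. An H3.3 interval does not report expression, and these counts did not separate fibroblast from epithelial genes.

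Positions in the genes are given from a main start, the annotated start used by the most transcripts of the gene, often a minority of them (5 of 14 in ZFAS1). Where starts tied, as in SNHG3 with 3 transcripts at 3 starts, the one nearest the start of the canonical transcript was taken. The bases at these starts are shown because they carry a feature the choice of genes did not use. Each line gives 20 bases before and 30 bases from an annotated start in hg38, read along the gene, with the pyrimidine run that begins at the start base in capitals. The start shown is the one with a C followed by at least 3 further pyrimidines nearest to the main start, within 100 bp of it.
ZFAS1 (chr20:49278622-49278671, plus strand): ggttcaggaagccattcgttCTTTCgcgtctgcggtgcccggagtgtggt
GAS5 (chr1:173867960-173868009, minus strand): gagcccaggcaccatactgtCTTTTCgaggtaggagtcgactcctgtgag
SNHG1 (chr11:62855827-62855876, minus strand): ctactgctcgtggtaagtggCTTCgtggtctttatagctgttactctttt
SNHG3 (chr1:28506023-28506072, plus strand): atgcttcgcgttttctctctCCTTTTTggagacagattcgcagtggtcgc
SNHG5 (chr6:85678704-85678753, minus strand): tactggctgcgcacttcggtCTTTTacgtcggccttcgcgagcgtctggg
SNHG7 (chr9:136728155-136728204, minus strand): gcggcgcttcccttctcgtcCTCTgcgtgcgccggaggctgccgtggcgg
SNHG8 (chr4:118278738-118278787, plus strand): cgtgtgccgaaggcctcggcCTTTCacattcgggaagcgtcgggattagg
SNHG12 (chr1:28581844-28581893, minus strand): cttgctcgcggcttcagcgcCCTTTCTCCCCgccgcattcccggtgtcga
SNHG15 (chr7:44986639-44986688, minus strand): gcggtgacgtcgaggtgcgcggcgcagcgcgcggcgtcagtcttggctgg
SNHG16 (chr17:76557749-76557798, plus strand): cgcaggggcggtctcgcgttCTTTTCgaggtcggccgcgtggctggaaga
Such a start was annotated in 9 of the 10 genes and in 6.05% of 18866 lncRNA genes. These genes have a median of 7 annotated starts within 100 bp of the main start against 1 for all lncRNA genes, which gives them more chances of a match. In ZFAS1, GAS5, SNHG7, SNHG8 and SNHG12 the run lies at the main start itself, and the run of SNHG12, 11 bases, is the longest. The SNHG3 start shown lies 63 bp past its main start and is used by 1 SNHG3 transcript. It is also the canonical start of the coding gene RCC1 on the same strand, so its run is not particular to SNHG3. In SNHG15 no start within this distance had one, and its main start is shown without capitals.

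H3.3 intervals lay near the starts of nearly all of these genes in both lists, but mostly not over them. The base at the main start lay under an interval in 1 gene without UV and in 3 after UV. This count depended on the start chosen. The canonical start lay under an interval in SNHG12 and SNHG15 without UV and in SNHG5 and SNHG15 after UV. The share of all genes with a covered start was not computed. An interval lay within 2 kb of a TSS in 9 of the 10 genes without UV and in the same 9 after UV, and SNHG8 had no interval in either list. Among all genes the corresponding shares were 29.5% without UV, 31.0% after UV and 25.9% in both lists, and among all 18866 lncRNA genes 25.6%, 26.5% and 21.7%. No host gene had a TSS interval in 1 list only. Of all lncRNA genes 8.62% did, in either direction, and 69.6% had none in either list. With 10 genes, finding none does not set them apart from that 8.62%. The host genes have a median of 11.5 annotated starts and all lncRNA genes have 1, so their windows are wider. With the main start alone the count was again 9 of 10 in each list, against 23.8% of lncRNA genes without UV and 25.0% after UV.

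**Figure D1:**
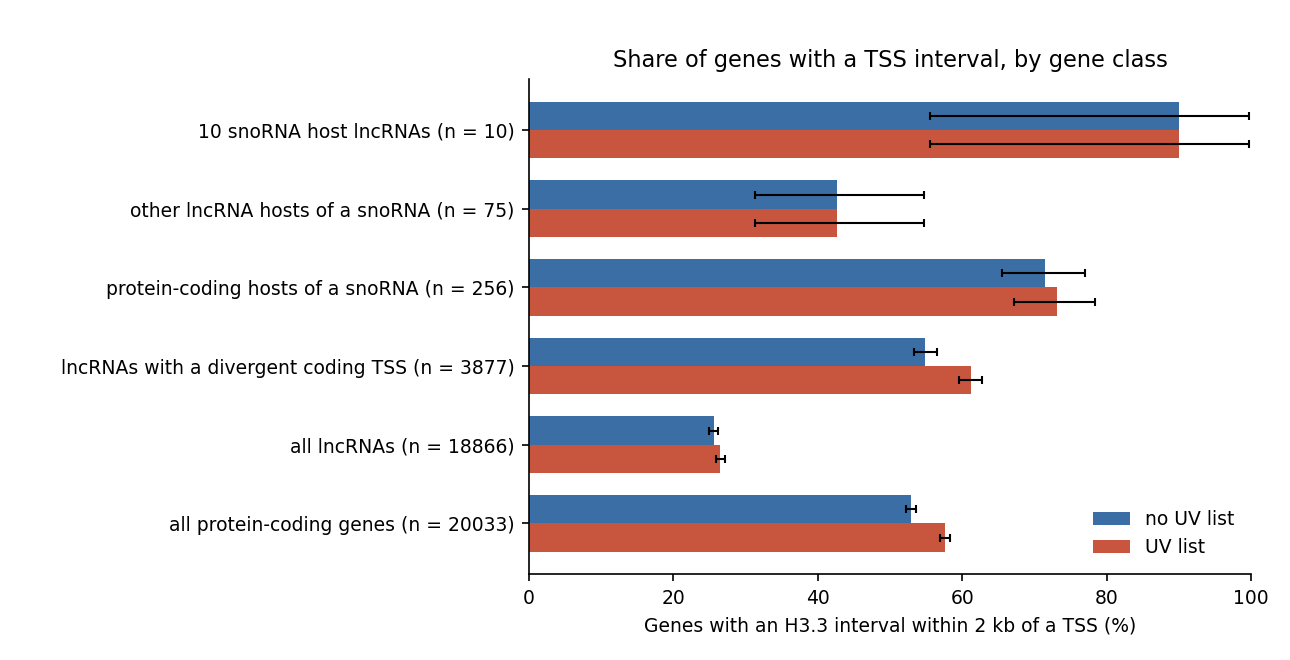
Percentage of genes with an H3.3 interval within 2 kb of an annotated TSS, in the no UV list (blue) and the UV list (red), for 6 overlapping gene classes. Whiskers are exact Clopper-Pearson 95% intervals for counting error over genes. The 10 host genes stand at 90% in both lists and all lncRNAs at 25.6% and 26.5%.

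The other 75 lncRNA genes that hold an annotated snoRNA gene on their own strand had a TSS interval in 42.7% of genes (exact 95% interval 31.3 to 54.6) in each list, beside 90% (55.5 to 99.7) of the 10 genes. Protein-coding hosts of snoRNAs, 256 genes, stood at 71.5% without UV and 73.0% after UV, and lncRNA genes with a coding gene that begins within 1 kb on the opposite strand at 54.9% and 61.2%. No test was made between these classes, which differ in their number of annotated starts, with medians of 3 in the other lncRNA hosts and 8 in the coding hosts. These percentages are plotted by gene class.

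The intervals of the 9 genes included broad domains with several summits and some of the strongest of their lists. Without UV 12 of 51 intervals had 2 or more summits and after UV 10 of 45, where all intervals gave 12.2% and 12.4%. At or above the 90th rank percentile lay 10 of 51 intervals without UV, against 10.3% of all intervals. After UV 6 of 45 did, near the 10.1% of all intervals. Some of these strong intervals held a start of another gene, at GAS5 and SNHG3 without UV and at SNHG7 after UV. Median widths were 465 bp without UV and 615 bp after UV. Of the 51 intervals without UV, 36 overlapped a UV interval (70.6%, exact 95% interval 56.2 to 82.5), where all intervals gave 57.3%. Of the 45 UV intervals, 41 overlapped one without UV (91.1%, 78.8 to 97.5), where all gave 65.6%. Intervals of 1 gene share its chromatin, so these intervals cover counting error only.

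The strongest interval of each gene set an order that differed between the lists, though with 1 library each neighbouring places cannot be told apart. Without UV, SNHG7 came first at the 99.1 rank percentile, followed by SNHG1 and SNHG3 at 98.2, SNHG5 at 98.1, ZFAS1 at 96.8 and GAS5 at 95.4. SNHG16 stood at 85.6, SNHG12 at 76.9 and SNHG15 at 50.1. After UV the order was SNHG7 at 99.7, SNHG5 at 98.5, ZFAS1 at 97.1, SNHG1 at 91.1, SNHG3 at 88.8, SNHG12 at 84.3, GAS5 at 76.2, SNHG16 at 64.9 and SNHG15 at 32.3. In ZFAS1 and SNHG5 the strongest interval lay in the gene or past its end without UV and at the promoter after UV, and in SNHG12 in the body without UV and over the main start after UV. The order depended on how far GENCODE extends each gene. Without UV the SNHG5 interval at 98.1 began 4909 bp past the RefSeq end. After UV the SNHG16 interval at 64.9 began 36728 bp past it. An interval just past the end of SNHG15 was outside the assignment rule, and stood at 95.04 without UV and 81.5 after UV. A UV interval past the end of SNHG3, also outside the rule, stood higher than its 88.8, at 93.1. The SNHG7 interval held a DIPK1B start after UV and lay within 1 kb of one without UV.

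**Figure D2:**
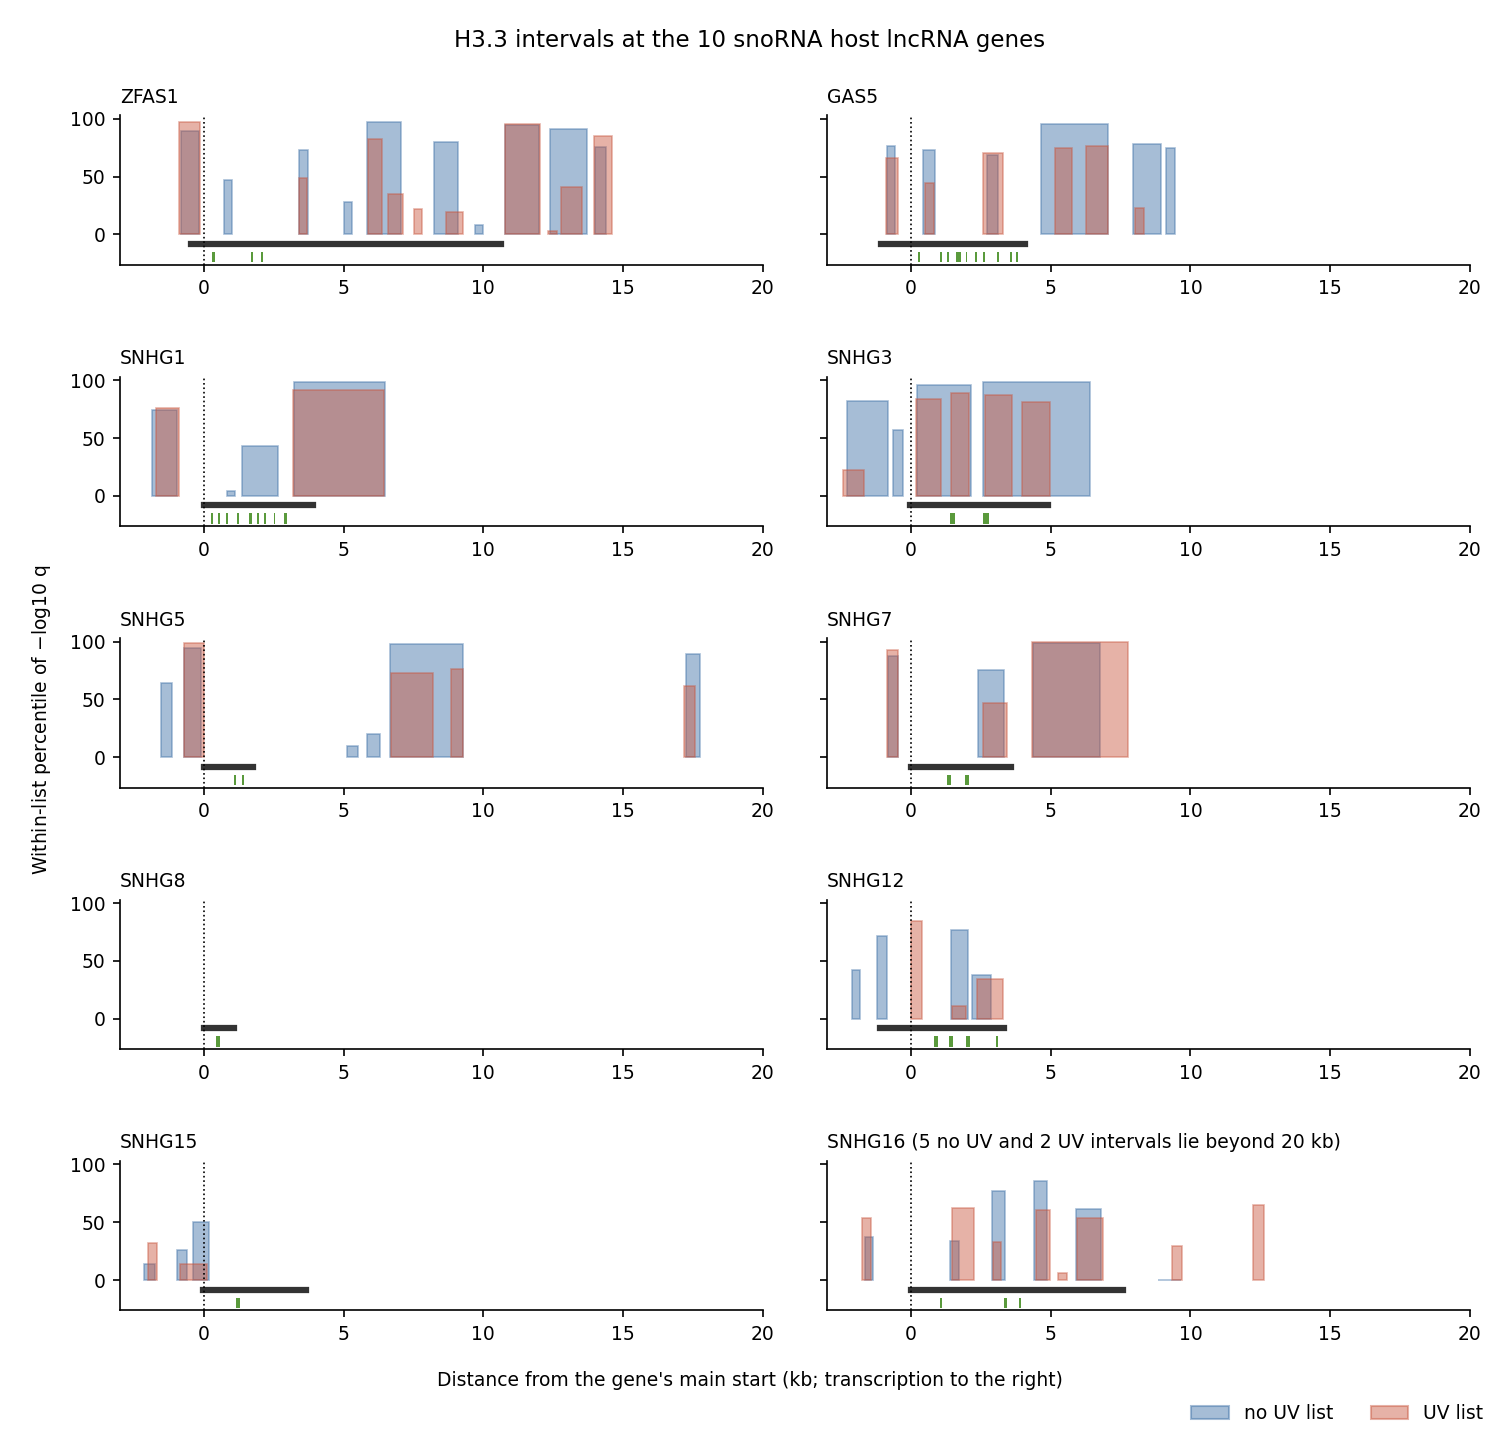
H3.3 intervals at the 10 host genes by distance from the main start in kb, drawn as boxes whose height is the rank percentile of −log10 q in the no UV list (blue) and the UV list (red). The black bar is the RefSeq gene and green marks are its snoRNA genes. SNHG8 is empty, and in 8 of the other genes the base at the main start lies under no interval without UV.

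ZFAS1, at chr20:49278178-49299600 on the plus strand, had 10 intervals in each list. It holds 3 box C/D snoRNA genes. Its promoter is shared with ZNFX1, which encodes a helicase-like zinc finger protein of antiviral defence. The nearest starts of the 2 genes are 113 bp apart, and the canonical ZNFX1 start lies 585 bp before the ZFAS1 start.

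The promoter interval of ZFAS1 spanned that ZNFX1 start in both lists. Without UV it ran from 810 to 178 bp before the ZFAS1 start, at a fold enrichment of 4.03, a −log10 q of 15.6 and the 89.3 rank percentile. After UV it ran from 899 to 138 bp before the start, at 7.26-fold, a −log10 q of 45.7 and the 97.1 rank percentile. Its width was 633 bp without UV and 762 bp after UV. The H3.3 at this place cannot be assigned to ZFAS1 or to ZNFX1.

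The stretch around the UV summit is shown because it carries the strongest ZFAS1 interval after UV. It holds 240 bases at chr20:49278144-49278383, from 498 to 259 bp before the start, with GC boxes (GGGCGG or CCGCCC, the letters bound by SP1-family factors) in capitals. Overlapping boxes run together.
ZFAS1 promoter: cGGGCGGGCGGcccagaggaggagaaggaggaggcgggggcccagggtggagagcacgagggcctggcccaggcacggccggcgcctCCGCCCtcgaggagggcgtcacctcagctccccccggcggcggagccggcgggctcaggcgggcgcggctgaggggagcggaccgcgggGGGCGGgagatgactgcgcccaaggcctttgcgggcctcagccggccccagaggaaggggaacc
Its GC content was 78.8%, and 4 GC boxes were found on the 2 strands. A GC box was present in 7 of the 9 host genes with a RefSeq promoter sequence of 300 bases (GRCh38.p14) and in 44.95% of all 35116 RefSeq promoters of that length. GAS5 and SNHG3 had none.

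Between the promoter and the end of its snoRNA genes, ZFAS1 was nearly free of intervals. The start itself lay under none, and the only interval in the first 3 kb ran from 710 to 993 bp without UV, at the 47.5 rank percentile, with none in the UV list. The 3 snoRNA genes fell into this gap, and none lay under an interval in either list. Their sequences are shown with the C box (TGATGA) and the D box (CTGA) of box C/D snoRNAs in capitals.
SNORD12C (chr20:49278945-49279023, plus strand): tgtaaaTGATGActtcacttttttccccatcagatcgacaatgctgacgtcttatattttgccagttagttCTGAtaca
SNORD12B (chr20:49280313-49280415, plus strand): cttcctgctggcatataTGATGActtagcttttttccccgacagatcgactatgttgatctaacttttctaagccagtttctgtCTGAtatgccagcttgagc
SNORD12 (chr20:49280683-49280772, plus strand): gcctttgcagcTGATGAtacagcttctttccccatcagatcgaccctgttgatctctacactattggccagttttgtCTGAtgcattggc

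Further along ZFAS1, both strong and weak intervals lay in the long last part of the RefSeq gene, which ends 10618 bp from the start, and in the stretch past it. At 3388 to 3730 bp the rank percentile was 72.8 without UV and 48.5 over nearly the same bases after UV. At 5844 to 7066 bp the interval without UV had a 13.3-fold enrichment and the 96.8 rank percentile. After UV 2 shorter intervals lay there, at the 82.9 and 34.7 rank percentiles. At 8235 to 9095 bp the percentile was 79.5 without UV, and an overlapping UV interval stood at 19.1. Intervals without a counterpart were weak. They lay at 5000 to 5297 bp and 9692 to 9985 bp without UV, at 27.7 and 7.87, and at 7507 to 7800 bp after UV, at 21.6. The interval that began just past the RefSeq end, at 10769 bp without UV and 10771 bp after UV, kept its place, at the 94.7 and 95.6 rank percentiles. The next, at 12368 to 13692 bp, stood at 91.1 without UV, and the 2 UV intervals over it at 2.62 and 40.8. The last, near 14 kb, stood at 75.3 without UV and 85.0 after UV. The 3 paired intervals inside the RefSeq gene and the one at 12368 bp thus ranked lower in the UV list, and those at the promoter, just past the RefSeq end and near 14 kb ranked higher.

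**Figure D3:**
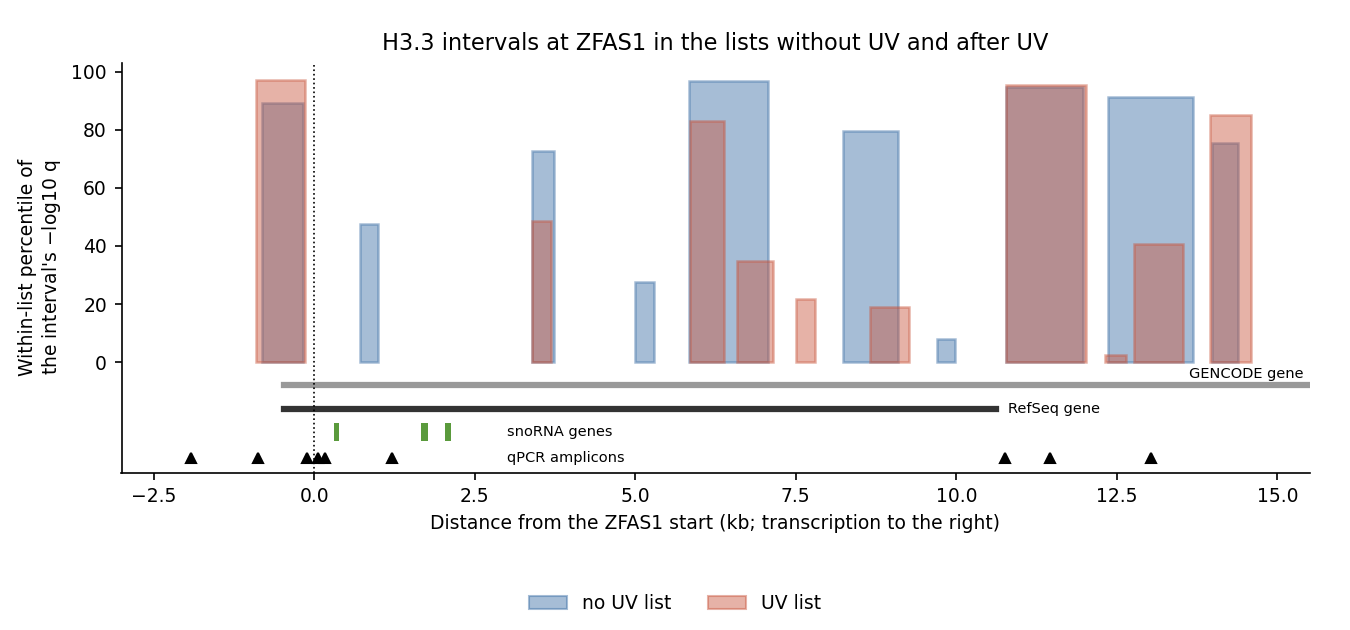
H3.3 intervals at ZFAS1 by distance from its start in kb, with the rank percentile of −log10 q as height, in the no UV list (blue) and the UV list (red). Bars below mark the GENCODE and RefSeq gene, green marks the snoRNA genes and triangles the study's ChIP-qPCR amplicons. The promoter interval stands at 89.3 without UV and 97.1 after UV, and the stretch with the snoRNA genes holds 1 interval, without UV.

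The study designed 9 ChIP-qPCR amplicons along ZFAS1, which were placed on hg38 by exact match of both primers. Amplicons 4 and 5, from 11400 to 11524 bp and from 12976 to 13089 bp past the start, lay wholly under an interval in both lists. Amplicons -2 and -1 touched the promoter interval only in the UV list, by 75 and 24 bp. Amplicon 3 overlapped an interval by 26 and 24 bp in the no UV and UV lists. Amplicons -3, 0, 1 and 2 lay under none. The primers of the 2 amplicons inside H3.3 intervals are shown, 5′ to 3′.
amplicon 4 forward (chr20:49290042-49290166): gggacctctagatttctaaaatga
amplicon 4 reverse (chr20:49290042-49290166): tgagcaagccaaggagaatga
amplicon 5 forward (chr20:49291618-49291731): acttagtgcctaacaggtactgc
amplicon 5 reverse (chr20:49291618-49291731): catgctctgccacttaacagc

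GAS5, at chr1:173858559-173868882 on the minus strand, had 6 intervals in each list. It holds 11 snoRNA genes and shares its promoter with ZBTB37, a gene for a zinc finger protein, with the nearest starts 87 bp apart. The promoter interval lay inside ZBTB37, from 869 to 571 bp before the GAS5 start at the 76.1 rank percentile without UV and from 889 to 470 bp before it at 65.9 after UV. Inside the snoRNA-bearing part, an interval over SNORD80 stood at 68.7 without UV and 70.3 after UV, where it was wider and also covered SNORD79. The strongest interval without UV began 556 bp past the RefSeq end of GAS5, was 2397 bp wide with 3 summits, reached 11.8-fold and stood at the 95.4 rank percentile. After UV 2 narrower intervals lay under it, of 636 and 805 bp, at 74.3 and 76.2. A start of the antisense gene GAS5-AS1 lies inside this interval.

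SNHG1, at chr11:62851978-62855953 on the minus strand, had 4 intervals without UV and 2 after UV. It holds 9 snoRNA genes, and a start of SLC3A2, which encodes the heavy chain of an amino acid transporter, lies 51 bp from one of its starts on the opposite strand. Both upstream intervals, at the 74.1 and 76.0 rank percentiles, lay inside SLC3A2. Without UV 2 intervals covered SNORD27, SNORD29, SNORD30, SNORD31 and LOC124900306, at the 4.47 and 43.2 rank percentiles, and no UV interval lay there. The strongest interval crossed the 3′ end of SNHG1 in both lists. It was 3260 bp wide with 5 summits at the 98.2 rank percentile without UV, and 3248 bp wide with 4 summits at 91.1 after UV.

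SNHG3, at chr1:28505980-28510892 on the plus strand, had 4 intervals without UV and 5 after UV. It carries SNORA73A and SNORA73B, which act in ribosomal RNA processing, and it shares 2 starts on its own strand with RCC1, the guanine nucleotide exchange factor of Ran. Without UV 2 broad intervals of 1961 and 3848 bp, with 3 and 6 summits, covered most of the gene at the 96.0 and 98.2 rank percentiles. After UV 4 intervals of 641 to 999 bp lay there, at 81.3 to 88.8. Another UV interval, of 1098 bp at 93.1, overlapped the broader of the 2 from 397 to 1494 bp past the gene end and so is not among the 5. Both snoRNA genes lay under an interval in both lists. Before the start, the interval from 647 to 299 bp was in the no UV list only, at 56.6, and the one further upstream stood at 81.6 without UV and 22.8 after UV. All H3.3 past the start may belong to RCC1 as well, since the genes overlap.

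SNHG5, at chr6:85650491-85678932 on the minus strand, had 6 intervals without UV and 4 after UV. It carries SNORD50A and SNORD50B, neither of which lay under an interval. Its promoter interval ran from 702 to 87 bp before the start without UV, at 4.63-fold and the 94.6 rank percentile. After UV it ran from 709 bp before to 11 bp past the start, at 9.35-fold and 98.5. The strongest interval without UV lay 6650 to 9270 bp past the start, with 4 summits, 17.8-fold enrichment and the 98.1 rank percentile, and the 2 UV intervals over it stood at 73.1 and 76.4. RefSeq SNHG5 ends 1741 bp from the start, and this stretch lies in the longer GENCODE transcripts, which overlap the coding gene ENSG00000271793 on the same strand. SNHG5 shares 1 annotated start with that coding gene, though the promoter intervals of SNHG5 did not overlap it. H3.3 in the overlapping stretch cannot be assigned to SNHG5 alone.

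SNHG7, at chr9:136721366-136728184 on the minus strand, had 3 intervals in each list, and each overlapped one in the other list. It holds SNORA17A and SNORA17B, under no interval. The promoter interval, from 831 to 476 bp before the start without UV, stood at the 87.7 rank percentile, and its UV counterpart at 93.2. The interval inside the gene, at 75.5 without UV, stood at 47.3 after UV. The strongest interval of all 10 genes began 787 bp past the RefSeq end without UV and 752 bp past it after UV, at 99.1 and 99.7, with a −log10 q of 51.2 and 104. It overlapped DIPK1B, and after UV its width of 3428 bp, against 2383 bp without UV, took in a DIPK1B start.

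SNHG12, at chr1:28578538-28583132 on the minus strand, had 4 intervals without UV and 3 after UV, and it holds 4 snoRNA genes. A UV interval covered its main start, from 9 bp before to 408 bp past it, at 6.30-fold and the 84.3 rank percentile, and overlapped no interval without UV. The main start of SNHG12 is used by 4 of its 19 transcripts, and the canonical start lies 1113 bp before it. Without UV an interval at the 71.2 rank percentile covered the canonical start, and after UV none did. This interval and another further upstream, at 42.5, had no UV counterpart. In the body, the interval over SNORA44 stood at 76.9 without UV, when it also covered SNORA61, and at 10.7 after UV. The 240 bases around the summit of the UV interval are shown because this was the only interval over a main start with no overlap in the other list. They lie at chr1:28581535-28581774, from 99 to 338 bp past the main start, read along the gene with the GC box in capitals.
SNHG12 start: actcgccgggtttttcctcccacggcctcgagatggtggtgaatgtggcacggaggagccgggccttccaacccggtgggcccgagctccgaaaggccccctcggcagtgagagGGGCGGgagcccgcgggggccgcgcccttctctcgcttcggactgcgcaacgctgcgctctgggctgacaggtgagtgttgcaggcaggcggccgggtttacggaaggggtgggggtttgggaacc
This stretch had a GC content of 69.6%.

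SNHG15, at chr7:44983019-44986961 on the minus strand, was the only gene whose main start lay under an interval in both lists, and these intervals were weak. Without UV the interval from 399 bp before to 187 bp past the start stood at the 50.1 rank percentile, and a second, from 976 to 604 bp before the start, at 26.0. After UV 1 interval from 867 bp before to 111 bp past the start overlapped both, at 13.7. Its single snoRNA gene, SNORA9, lay under none.

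SNHG16, at chr17:76557727-76670985 on the plus strand, had 11 intervals without UV and 10 after UV, over a GENCODE gene of 113 kb whose RefSeq form ends 7582 bp from the start. The interval before the start, between 1348 and 1628 bp, stood at the 37.5 rank percentile without UV and its UV counterpart at 54.1. Inside the RefSeq gene the strongest interval, at 4409 to 4863 bp, stood at 85.6 without UV and 61.1 after UV. The interval that touched SNORD1B stood at 77.2 without UV and 32.9 after UV, when it no longer reached the snoRNA gene. An interval near 44.5 kb stood at 61.8 and 64.9.

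SNHG8, at chr4:118278703-118285316 on the plus strand, carries SNORA24 and has a pyrimidine start like ZFAS1. The nearest interval lay 66.7 kb from the gene without UV and 245 kb after UV. The lists hold only intervals past the authors' threshold, so H3.3 below it was not detectable here.

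Most snoRNA genes of the hosts lay outside H3.3 intervals. Of 38 RefSeq snoRNA genes in the 10 hosts, 11 lay under an interval without UV and 6 after UV, with 4 in both lists. Among all 1199 RefSeq snoRNA genes the shares were 6.42% and 4.75%. The 7 found only without UV included the 5 of SNHG1, with SNORA61 of SNHG12 and SNORD1B of SNHG16. The 2 found only after UV were SNORD79 of GAS5 and SNORD99 of SNHG12. SnoRNA genes of 1 host lie close together and can share an interval.

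The bases covered by H3.3 differed between promoters and bodies. In the 1 kb before the main start, 3358 bp were covered without UV and 3289 bp after UV, a ratio of 0.979, where all genes together gave 1.30 and all lncRNA genes 1.24. ZFAS1, GAS5, SNHG1, SNHG5, SNHG7 and SNHG15 had more covered bases there after UV, which is 6 of 8 genes with any, against 65.7% of lncRNA genes. SNHG3 went from 513 bp to 0 and SNHG12 from 124 to 9 bp, and SNHG8 and SNHG16 had none in either list. The share of genes with more covered bases was near that of all lncRNA genes.

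From the main start to the GENCODE gene end, 31111 bp were covered without UV and 24560 bp after UV, a ratio of 0.789, where all lncRNA genes gave 0.865 and all genes 0.897. Fewer bases were covered after UV in 8 of 9 genes, against 51.0% of lncRNA genes, 63.6% of the 75 other noncoding hosts and 68.2% of the coding hosts of snoRNAs. The ratios of these host classes were 0.770 and 0.813, on either side of that of the 10 genes. More bases were covered in SNHG12, with 1246 bp without UV and 1835 bp after UV. The largest differences were in GAS5, from 4514 to 2799 bp, SNHG5, from 3963 to 2334 bp, and SNHG1, from 2247 to 716 bp. SNHG7 differed by 9 bp, with 3318 and 3309. The count depended on the gene annotation, and within the RefSeq genes 5 of 9 genes had fewer covered bases after UV and 4 had more, with a ratio of 0.861. With both lists at equal numbers of peaks, 7 of 9 genes had fewer.

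**Figure D4:**
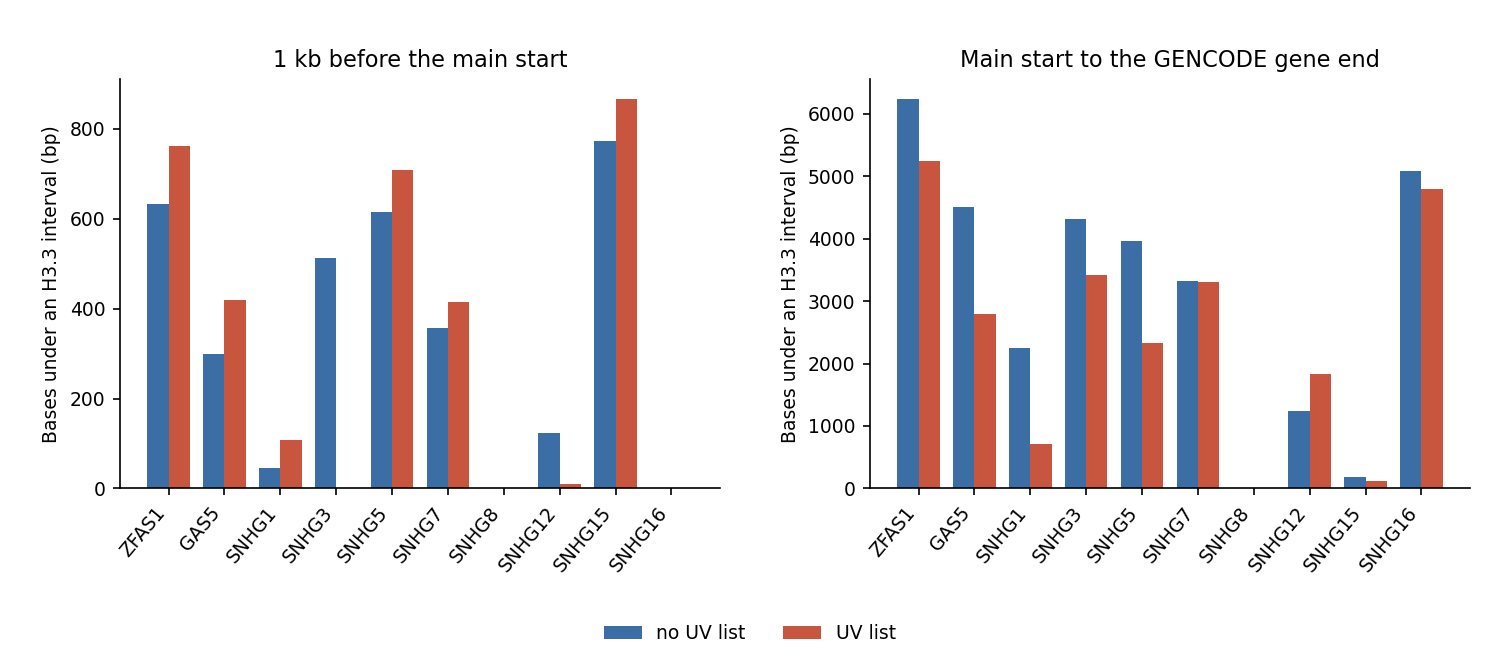
Bases under an H3.3 interval in the no UV list (blue) and the UV list (red) for each of the 10 host genes, in the 1 kb before the main start (left) and from the main start to the GENCODE gene end (right), in bp on separate axes. Bars are single values without replicates. ZFAS1 has 633 and 762 bp before its start, and 6242 and 5239 bp after it.

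Ranks of paired intervals were also compared by their place in the gene. Of 36 intervals without UV that overlapped a UV interval, 14 had a higher rank percentile after UV and 22 a lower one, with a median difference of -7.68 percentile points. Of all 50865 such intervals 44.3% were higher, with a median of -1.86. Of 10 pairs upstream of or over the main start, 6 were higher and 4 lower, with a median difference of 2.88, where 56.4% were higher over all lncRNA genes, with a median of 1.05. Of 26 pairs downstream, 8 were higher and 18 lower, with a median of -11.0, where lncRNA genes gave 43.0% higher and a median of -2.38. GC content moved with this difference. Intervals upstream or over a start had a median GC content of 52.7% without UV and 61.5% after UV, and those downstream 47.1% and 48.5%. Across the whole list, 67.7% of paired intervals with a GC content of at least 60% had a higher rank after UV, and 36.3% of those under 60%. Among the host genes 4 of 6 pairs with a GC content of at least 60% were higher after UV and 10 of 30 under 60%, both near the shares of the whole list. The part of GC content in the rank differences of the host genes was not tested.

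**Figure D5:**
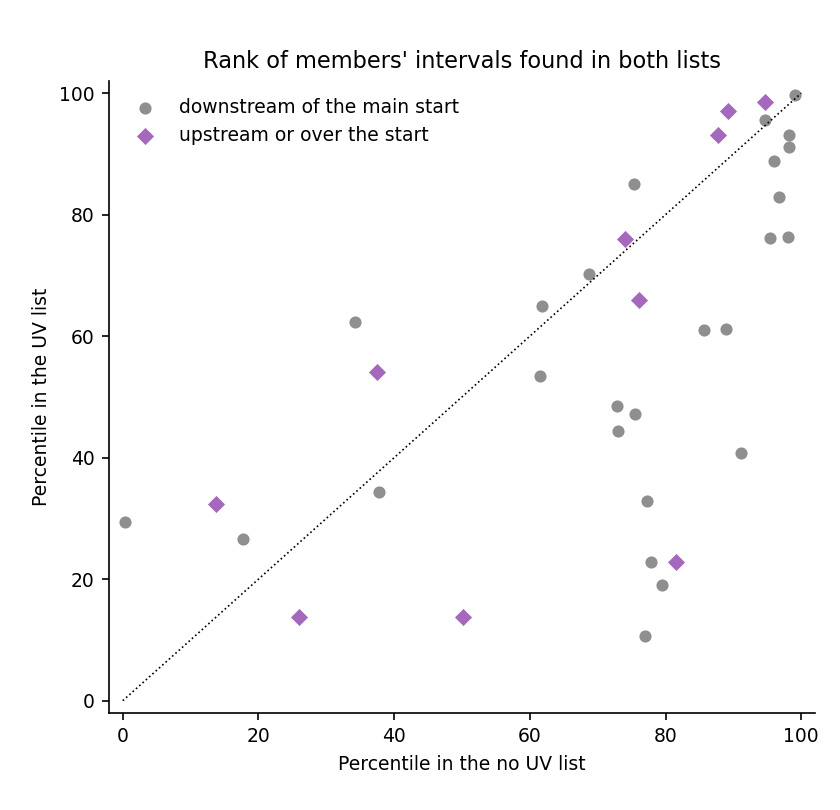
Rank percentile of −log10 q in the no UV list (horizontal) and the UV list (vertical) for the 36 intervals without UV that overlap a UV interval, the strongest one where there are several. Purple diamonds are intervals upstream of or over a main start, grey circles those downstream, and the dotted line marks equal rank. Below the line lie 18 of 26 downstream intervals and 4 of 10 others.

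The 3′ ends were a second place where intervals gathered, noted after positions had been seen. Within 3 kb past the RefSeq end, 8 of 10 host genes had an interval without UV and the same number after UV. Of 5364 lncRNA genes matched to RefSeq by name 11.4% did without UV and 10.9% after UV, and of 19237 protein-coding genes 25.8% and 24.9%. The strongest interval in this stretch reached the 90th rank percentile in 6 of the 8 genes without UV, ZFAS1, GAS5, SNHG1, SNHG3, SNHG7 and SNHG15, and in 4 after UV, ZFAS1, SNHG1, SNHG3 and SNHG7. The share of all genes that reached it was not computed, so these counts have no background. At SNHG3 the intervals in this stretch lay in RCC1. At SNHG15 the strongest interval lay outside the annotated gene and so was not counted above. It began 332 bp past the end without UV, at 10.9-fold and the 95.04 rank percentile, and 221 bp past the end after UV, at 81.5. At SNHG12 the interval lay in the convergent gene TRNAU1AP, at 76.5 without UV and 83.7 after UV, and at SNHG16 the rank percentiles were 0.262 and 29.4. RCC1 continues past SNHG3 on the same strand, with a start inside the interval across the SNHG3 end in both lists. GAS5-AS1 and DIPK1B lie on the strand opposite to GAS5 and SNHG7. A GAS5-AS1 start lay inside an interval past GAS5 in both lists. A DIPK1B start lay inside the interval past SNHG7 after UV and within 1 kb of it without UV. These stretches are thus not those of the host gene alone, and H3.3 near such starts cannot be assigned to the host. ZFAS1, SNHG1 and SNHG15 had no other coding or lncRNA gene under their intervals there. SNHG5 and SNHG8 had none.

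Of the 75 other noncoding hosts, 5 had a TSS interval in the UV list only and 5 in the no UV list only. In the UV list only were ENSG00000253256 with a −log10 q of 29.6, SNHG11 with 13.3, UBA6-DT with 11.9, SNHG18 with 8.75 and SNHG6 with 7.60. In the no UV list only were ENSG00000286308 and LINC03069, each with 3.73, SNHG14 with 2.62, OXA1L-DT with 2.57 and ENSG00000290993 with 2.12. The highest −log10 q at a TSS belonged to ENSG00000262202, with 125 without UV and 153 after UV, and TBX3-AS1, with 71.6 and 104. SNHG9 stood at the 97.8 rank percentile without UV and 99.0 after UV, SNHG28 at 98.8 and 97.9, and SNHG17 at 97.9 and 81.9. Beside the 10 genes, 20 others are named SNHG with a number, 16 of them among these 75. Of the 20, 14 had a TSS interval without UV, 17 after UV and 13 in both lists, where all lncRNA genes gave 25.6%, 26.5% and 21.7%.

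Genes that act on snoRNAs and on host transcripts mostly had a TSS interval in both lists. All 4 box C/D core proteins, FBL, NOP56, NOP58 and SNU13, did, and of the box H/ACA core DKC1 and NOP10 did and GAR1 and NHP2 had none. Of 10 snoRNP assembly genes 7 had one without UV and 9 after UV, with NUFIP1 and ZNHIT3, which load proteins onto nascent box C/D RNAs, in the UV list only and ZNHIT6 in neither. Of 8 nonsense-mediated decay genes 6 had one without UV and 7 after UV, with UPF3B in the UV list only and UPF2 in neither. LARP1, LARP4, MTOR and EIF4E, which act on the translation of pyrimidine-start messages, had one in both lists. For all protein-coding genes the shares were 53.0% without UV and 57.6% after UV.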

How the data were processed

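H3.3 ChIP-seq in MRC5 cells was sequenced as 1 library per condition. Reads were trimmed (Trimmomatic), mapped to hg38 (BWA 0.7.12) and freed of duplicates (Biobambam2) by the authors, and peaks were called with MACS, version 1.4.2 in the submitters' processing notes. A control and a threshold for H3.3 peaks are not given in the sources used here. The authors deposited 1 peak list per library, and each summit carries a score, a −log10 p, a −log10 q and a fold enrichment, which is a linear ratio to the local background, all within that library. The score and the −log10 p were not used.

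Rows with equal coordinates were joined into 1 interval with its strongest summit. Chromosome lengths were checked against hg38, genes and TSSs came from GENCODE release 44, and snoRNA genes, gene ends and promoters from RefSeq (GRCh38.p14). Counterparts overlapped by at least 1 bp. Assignment and coverage were tested on simulated data. All 10 host genes, their coding neighbours, other noncoding hosts with a TSS interval in 1 list or the highest −log10 q, and pathway genes in 1 list were named. The members and lists were chosen with earlier results of these data known. Python 3.11.15, pandas 2.3.3 and scipy 1.17.1 were used. No test or p-value is given, since each condition has 1 library.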

Additional observations from a re-analysis of the deposited data

How the results depend on the processing

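Counts of TSS intervals and assigned intervals, the covered bases of the TSS windows and the shares of counterparts were recomputed under those of 10 alternatives that bear on each, 1 of them, the RefSeq gene with its main start alone, chosen after seeing the data. The counts of snoRNA genes, GC boxes, rank pairs and 3′ ends were not recomputed. Of 80 recomputed values 77 stayed within 1.5 times the reported count, within 10% of the reported ratio or within the exact 95% interval of the reported share. The 3 others were counts of assigned intervals. When peaks below a −log10 q of 5 were dropped, 33 intervals were assigned without UV. Without ZFAS1, GAS5 and SNHG1, which have a divergent coding neighbour, 31 were assigned without UV and 27 after UV, since fewer genes were counted. With the RefSeq gene and its main start alone, 34 were assigned without UV, against 51 reported, and 30 after UV, against 45. These 2 counts lie at the limit of 1.5 times and were counted as within it, so the number of assigned intervals depends on the annotation. TSS intervals were found in 9 genes in both lists under each alternative that recomputed them, which left out the 50% overlap and the omission of those 3 genes, except that dropping peaks below a −log10 q of 5 left 8. The ratio of covered bases in the TSS windows, 0.807, ranged from 0.733 with the canonical start only to 0.855 with a window of 3 kb. Leaving out a replicate was not possible with 1 library per condition. No paired analysis was possible because each condition has 1 library and the result comes from no test. The depth of the libraries was not known from the lists, which limits any statement on intervals found in 1 list only.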
